A study of Mus musculus with 6 samples.

Results

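Actin assembly and CDC42 effector genes were followed in natural killer T (NKT) cells that lack DOCK8, as 37 genes that encode small GTPases, the WASP, WAVE and Arp2/3 machinery, a formin, actins and actin-binding proteins. The genes were named by symbol, with no expression value in the rule. A gene was tested where the array annotation gave its symbol alone to a probe with a detection p under 0.05 on at least 3 of the 6 arrays, and the probe with the highest mean over the 6 arrays stood for the gene. This left 30 of the 37 genes, among 9060 genes tested in all, and each of the 30 was detected on every array, so that none of their values is a bound. Rhoa and Rhoh, which encode the contraction-promoting GTPase RHOA and a GTPase of blood cells, were left out because their probes were detected on 0 of 6 arrays, with lowest detection p of 0.219 and 0.0823. The expression of Pak1, Arpc3, Actr2, Actg1 and Ezr was not analysed here.

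The cells were CD44+ NK1.1+ mature NKT cells of the thymus. Those of the Captain Morgan strain, DOCK8-deficient by its genotype label and called a knockout in the sample titles, were set against those of wild type mice. All 6 samples carry a C57BL/6 strain label, and each group held 3 biological replicates with 1 Illumina array each. The labels do not say how many animals gave a replicate, and the p-values cover only the differences among these 6 samples. Each array detected between 16496 and 18451 of 45281 probes. Values are log2 intensities after background correction and quantile normalisation, differences are DOCK8-deficient minus wild type on that scale, and adjusted p-values come from limma with Benjamini-Hochberg adjustment over all genes tested. Dock8 transcript did not mark the groups, at 9.52, 9.42 and 9.46 on the log2 scale in DOCK8-deficient cells, against 9.45, 9.29 and 9.69 in wild type cells (limma adjusted p = 0.989). The place of its probe relative to the lesion is not used here, so the grouping rests on the labels. Of the 14 NKT cell identity genes listed, 13 were tested and 12 were detected on all 6 arrays, among them Zbtb16, Tbx21, Klrb1c, Cd44 and Cd3e.

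DOCK8 acts as an exchange factor and loads CDC42 with GTP. Active CDC42 opens the WASP protein, which is held by its partner WIP, and WASP then drives the Arp2/3 complex to nucleate branched actin filaments at the cell edge and at the immune synapse. RAC GTPases act in parallel through the WAVE complex, formins elongate unbranched filaments, and further proteins cap, sever, bundle or tether the filaments. The steps from DOCK8 to Arp2/3 are changes of protein activity, and the arrays read transcript levels only.

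The comparison asked whether transcripts of this machinery differed in NKT cells without DOCK8. None of the 30 genes met the threshold: 0 passed limma's test at an adjusted p under 0.05 over all genes, where 33 of 9060 genes (0.364%) passed, and the lowest adjusted p was 0.31, for Cfl1. At an unadjusted p under 0.05 stood 3 of the 30, all higher in DOCK8-deficient cells (Cfl1, Vcl and Coro1a), where 5.68% of all genes were higher and 5.66% lower by the same criterion. The differences were small, from -0.30 for Fermt3 to 0.58 for Vcl on the log2 scale with a median of 0.10, beside a median of -0.0049 over all genes. In absolute size their median was 0.15, as it was for all genes. Of the 30 genes, 21 (70%) read higher and 9 lower, where 49% of all genes read higher. With arrays scaled to a common median 17 read higher, but that scaling also lowered the median of all genes: the medians were then 0.03 for the 30 genes and -0.08 for all genes.

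The precision of the arrays bounds these differences. The within-group SD of the 30 genes was 0.15 in the median, between 0.03 and 0.41, and that of all genes 0.19. The 95% interval of the difference lay within a 2-fold change in either direction for 29 of the 30 genes, the exception being Vcl, and within a 1.5-fold change for 22 of them. A change of 1.5-fold was thus outside the interval for those 22 genes, among them Was, Wipf1, Arpc2, Arpc5, Actr3, Rac2 and Actb. For the others it was not, and their missing the threshold does not show equal expression. These bounds hold for the brightest probe of each gene under quantile normalisation. Dimmer probes of Arpc5 (0.10 to 0.84), Actr3 (0.12 to 0.73) and Actb (-1.17 to 1.44) had intervals that reached past 1.5-fold. With arrays scaled to a common median, Cdc42 differed by 0.24 with a limma p of 0.416, beside 0.27 and 0.0837 here, so its interval was wider there. The widening was not particular to Cdc42. Rac2 then differed by -0.09 with a limma p of 0.76, beside -0.05 and 0.713 here, a larger difference with a larger p. The count of 22 was not made under that scaling and is not claimed for it.

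**Figure D1:**
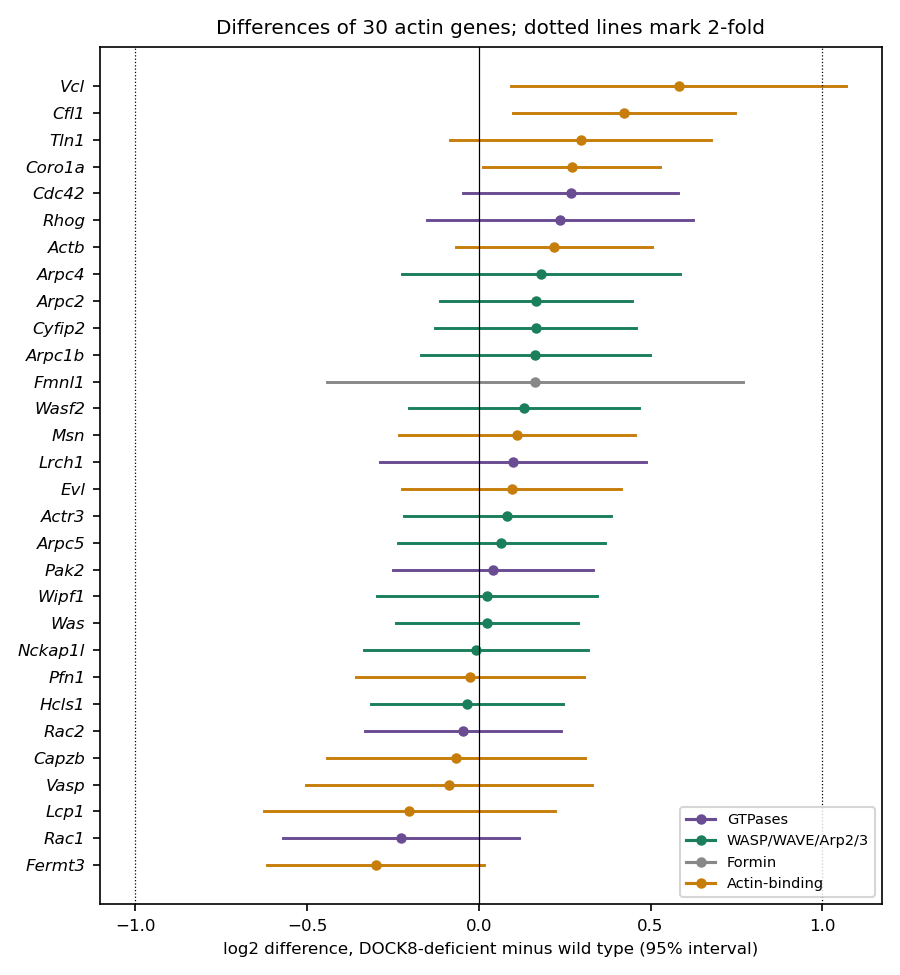
Log2 differences, DOCK8-deficient minus wild type, of the 30 genes with 95% intervals (3 arrays per group), ordered by size and coloured by role, with dotted lines at a 2-fold change. Only the interval of Vcl, from 0.09 to 1.07, reaches past a dotted line, and the intervals of 3 genes lie above 0.

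Among the small GTPases, Cdc42 itself is the direct target of DOCK8. Of its 4 probes only 1 met the detection filter. That probe read 11.67, 11.62 and 11.48 in DOCK8-deficient cells, against 11.16, 11.48 and 11.34 in wild type cells. The groups touched without overlapping, and the difference of 0.27 ± 0.13 (SE, 95% interval -0.04 to 0.58) did not pass (adjusted p = 0.517). Rac1, the ubiquitous activator of the WAVE complex, averaged 8.35 ± 0.20 in DOCK8-deficient cells, against 8.57 ± 0.13 in wild type cells (± SD over 3 arrays each), with 1 of the DOCK8-deficient arrays, at 8.11, below the other 5. Rac2, the RAC of blood cells, averaged 12.18 ± 0.06 in DOCK8-deficient cells, against 12.23 ± 0.12 in wild type cells, a difference of -0.05 with an interval of -0.33 to 0.24.

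Rhog, a GTPase that acts upstream of RAC, read 9.92, 10.47 and 10.35 in DOCK8-deficient cells against 9.94, 10.12 and 9.96 in wild type cells, so that 2 DOCK8-deficient arrays stood above every wild type array and 1 below them. Its difference was 0.24 (-0.15 to 0.62). It was 0.40 without DOCK8-deficient replicate 1, still short of the threshold (adjusted p = 0.261), and 0.13 without DOCK8-deficient replicate 2. Pak2, a kinase switched on by GTP-bound CDC42 and RAC, differed by 0.04 (-0.25 to 0.33). Lrch1, a leucine-rich repeat protein that binds DOCK8 and restrains CDC42 activation in T cells, differed by 0.10 (-0.29 to 0.49). Over the 6 genes of this group, 4 read higher and 2 lower, 0 passed, and the median difference was 0.07, or -0.03 with arrays scaled to a common median, where that of all genes was -0.08. It ranged from 0.01 without DOCK8-deficient replicate 1 to 0.15 without DOCK8-deficient replicate 3.

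Transcripts for the step downstream of CDC42 lay close together in the 2 groups. Was, which encodes WASP, read 12.20, 12.29 and 12.24 in DOCK8-deficient cells, against 12.19, 12.17 and 12.29 in wild type cells. All 6 values lay within a narrow band, and the difference of 0.02 had an interval of -0.24 to 0.29. Wipf1, which encodes the WASP partner WIP, averaged 12.55 ± 0.13 in DOCK8-deficient cells, against 12.53 ± 0.16 in wild type cells, a difference of 0.02 (-0.30 to 0.34). WIP also ties DOCK8 to WASP and actin in T cells. Hcls1, a cortactin relative of blood cells that stabilises branched filaments, differed by -0.03 (-0.31 to 0.24).

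For the WAVE complex, which RAC activates, 3 of the 37 genes were measured. Nckap1l, the HEM1 subunit of blood cells, averaged 11.35 ± 0.14 in DOCK8-deficient cells, against 11.36 ± 0.16 in wild type cells. Wasf2, which encodes WAVE2, differed by 0.13 (-0.20 to 0.46), with 1 wild type array, at 11.38, below the other 5. Without that array the difference was 0.02. Cyfip2, the subunit that binds RAC, differed by 0.17 (-0.13 to 0.46). None of these 3 passed, with adjusted p between 0.689 and 0.991. Of WAVE complex genes outside the 37, Abi1 (0.07) and Brk1 (0.01) read higher. Abi2 (-0.17), Abi3 (-0.57) and Nckap1 (-0.34) read lower, and none passed.

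The Arp2/3 complex nucleates filament branches. On their brightest probes, its 5 subunits measured among the 37 genes all read higher in DOCK8-deficient cells, by 0.07 to 0.18. Of these 0 passed (lowest limma adjusted p 0.668). The second brightest Arpc5 probe read lower, at -0.09, and the dimmest higher, at 0.47. The further tested probes of Arpc1b, Arpc4 and Actr3 read higher. Outside the 37, the subunit genes Arpc1a (-0.14, adjusted p = 0.757) and Arpc5l (-0.03, adjusted p = 0.961) read lower. With arrays scaled to a common median 4 of the 5 read higher, and Arpc5, at -0.01, was above the median of all genes, -0.08. Arpc2, of the structural core, read 13.29, 13.47 and 13.30 in DOCK8-deficient cells, against 13.15, 13.17 and 13.25 in wild type cells. Its groups did not overlap, and the difference of 0.17 had an interval of -0.11 to 0.44. Arpc4, the core partner of Arpc2, differed by 0.18 (-0.22 to 0.59) and was the least even of the 5, at 10.70, 10.66 and 10.92 in DOCK8-deficient cells against 10.58, 10.28 and 10.87 in wild type cells. Its difference was 0.03 without wild type replicate 2 and 0.33 without wild type replicate 3.

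The remaining subunits overlapped between groups. Arpc1b, the subunit form that prevails in blood cells, averaged 12.56 ± 0.21 in DOCK8-deficient cells, against 12.40 ± 0.09 in wild type cells. Arpc5 averaged 13.95 ± 0.15 in DOCK8-deficient cells against 13.89 ± 0.07 in wild type cells. Actr3, which encodes the actin-like ARP3, read 13.84, 13.54 and 13.58 in DOCK8-deficient cells, against 13.56, 13.56 and 13.58 in wild type cells, so that 1 DOCK8-deficient array stood above the other 5. Its difference was 0.08 with that array and -0.01 without it. Over the 11 genes from WASP to Arp2/3, 9 read higher and 2 lower, with a median difference of 0.08 and 0 passing. That median was 0.04 without DOCK8-deficient replicate 1, 0.14 without DOCK8-deficient replicate 2, 0.13 with the mean of probes and 0.02 with arrays scaled to a common median.

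The only formin among the genes, Fmnl1 of blood cells, was dim and uneven. It read 6.56, 7.62 and 7.36 in DOCK8-deficient cells, against 7.05, 6.83 and 7.17 in wild type cells, so that the DOCK8-deficient arrays spanned the whole wild type range. Its difference of 0.16 had the widest interval of the 30 genes, from -0.44 to 0.77.

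**Figure D2:**
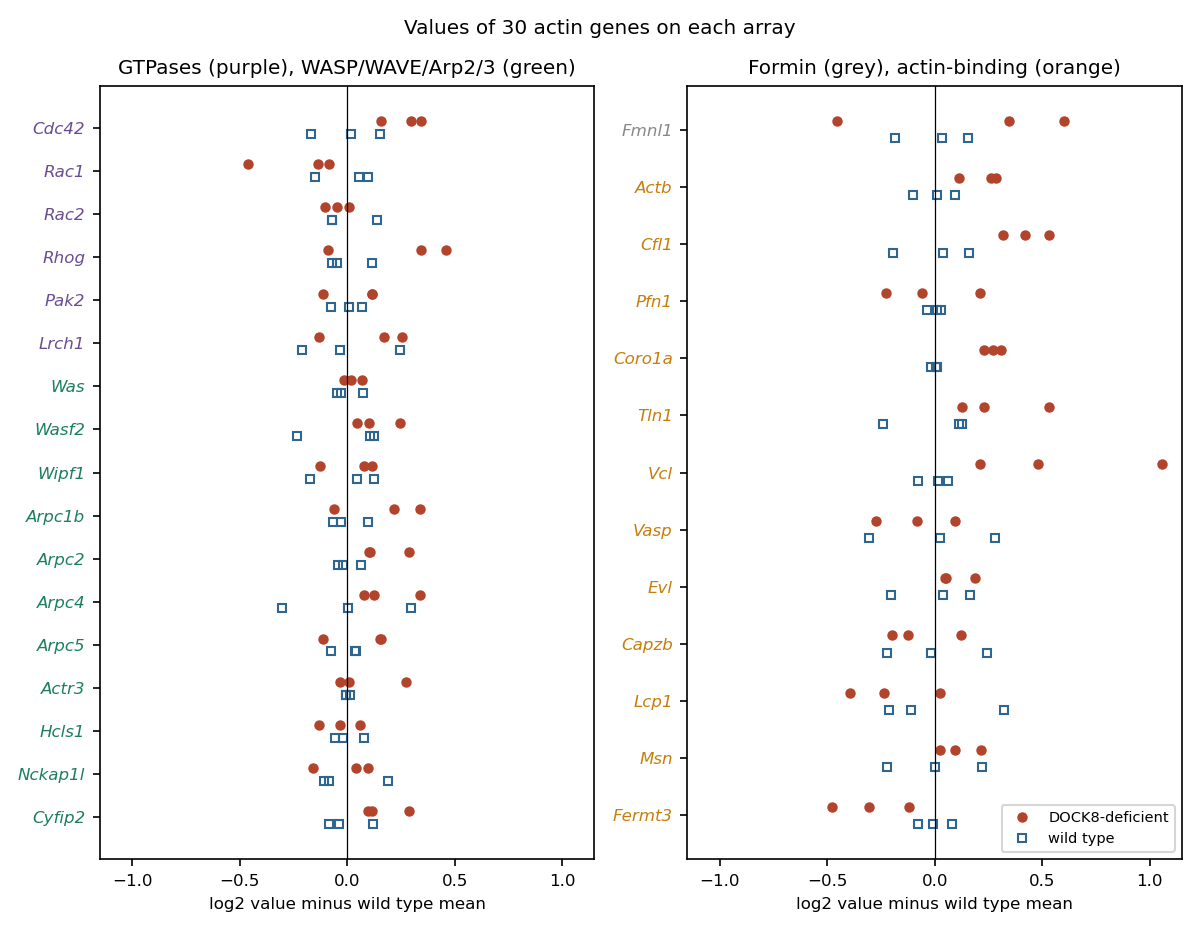
Log2 values of the 30 genes on each array, given as the difference from the wild type mean of the gene, with filled circles for the 3 DOCK8-deficient arrays above open squares for the 3 wild type arrays. Most rows overlap, while Vcl, Cfl1 and Coro1a show all DOCK8-deficient circles to the right of the squares and Fermt3 shows them to the left.

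The largest differences lay among actin-binding genes. Vcl encodes vinculin, which links integrin adhesions to actin, and read 8.38, 7.54 and 7.81 in DOCK8-deficient cells against 7.35, 7.39 and 7.25 in wild type cells. All DOCK8-deficient arrays stood above all wild type arrays, with replicate 1 far above the other 2. The difference was 0.58 ± 0.21 (SE), or 1.497-fold with an interval of 1.07-fold to 2.10-fold, and did not pass (adjusted p = 0.359). It was 0.35 without DOCK8-deficient replicate 1 (adjusted p = 0.349) and 0.29 without background correction (adjusted p = 0.273).

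Cfl1 encodes cofilin, which severs and depolymerises filaments, and read 9.41, 9.53 and 9.31 in DOCK8-deficient cells against 8.80, 9.03 and 9.15 in wild type cells. The groups were apart, and the difference was 0.42 ± 0.14, or 1.34-fold (1.07-fold to 1.68-fold, adjusted p = 0.31). Coro1a encodes coronin 1A, an actin-binding protein that T cells need for survival and for leaving the thymus. It read 14.86, 14.90 and 14.94 in DOCK8-deficient cells, against 14.64, 14.61 and 14.63 in wild type cells. The replicates of each group lay close together, with an SD of 0.04 in DOCK8-deficient cells and 0.01 in those of wild type, and the difference of 0.27 ± 0.11 (0.01 to 0.53, adjusted p = 0.421) was small. Scaled to a common array median, it was 0.13.

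Promoter sequences are shown for Vcl and Cfl1, which had the largest differences, and for Arpc4, which shares a motif with Vcl. They come from RefSeq on build GRCm38.p6 and run from 250 bases before to 50 bases after the annotated gene start. Capitals mark matches to the CArG box, the site of serum response factor, whose cofactors are released when free actin falls, and to CCGGAAGT, a core of ETS factor sites. Both strands were searched, and the matches do not overlap. The Vcl sequence is chr14:20929148-20929447 on the plus strand, that of Cfl1 is chr19:5490205-5490504 on the plus strand and that of Arpc4 is chr6:113377863-113378162 on the plus strand.
Vcl: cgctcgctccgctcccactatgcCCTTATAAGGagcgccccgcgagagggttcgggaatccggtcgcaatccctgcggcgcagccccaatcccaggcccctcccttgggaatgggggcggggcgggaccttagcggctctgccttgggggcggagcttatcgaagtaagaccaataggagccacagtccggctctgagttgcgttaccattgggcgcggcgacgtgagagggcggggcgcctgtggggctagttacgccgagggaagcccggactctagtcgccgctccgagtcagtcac
Cfl1: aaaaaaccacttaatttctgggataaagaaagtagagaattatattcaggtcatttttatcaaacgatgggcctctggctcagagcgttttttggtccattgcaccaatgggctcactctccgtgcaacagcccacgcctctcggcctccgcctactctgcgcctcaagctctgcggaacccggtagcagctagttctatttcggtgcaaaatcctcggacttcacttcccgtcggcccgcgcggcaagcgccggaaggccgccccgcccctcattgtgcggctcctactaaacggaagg
Arpc4: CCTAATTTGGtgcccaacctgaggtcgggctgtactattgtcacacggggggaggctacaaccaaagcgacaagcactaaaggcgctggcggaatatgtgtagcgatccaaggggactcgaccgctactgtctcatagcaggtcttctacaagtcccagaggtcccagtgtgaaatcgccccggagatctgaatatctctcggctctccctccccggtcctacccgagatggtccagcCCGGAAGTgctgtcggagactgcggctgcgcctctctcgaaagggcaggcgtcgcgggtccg
A CArG box was found in 3 of the 32 listed genes with a promoter in the table (9.38%), Vcl, Arpc4 and Actg1, and in 1.81% of all 27025 genes there. Actb, Nckap1l, Pak2, Rac1 and Rac2 had no promoter in the table and were not searched. In Vcl the CArG box starts 227 bases before the gene start and in Arpc4 250 bases before it. CCGGAAGT was found in 4 of the 32 (12.5%), all subunits of Arp2/3 (Arpc4, Actr3, Arpc3 and Actr2), and in 4.31% of all genes. The expression of Actg1, Arpc3 and Actr2 was not tested. Among the 25 tested genes with a promoter in the table, each motif was found in 2 (8.0%). Neither motif was found in the Cfl1 window. These are matches of letters and were not tested for use in NKT cells.

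Actb, which encodes the main cytoplasmic actin, read 15.25, 15.40 and 15.42 in DOCK8-deficient cells, against 15.14, 15.23 and 15.03 in wild type cells. The groups did not overlap, by a margin smaller than the spread within either, and the difference was 0.22 (-0.07 to 0.50, adjusted p = 0.566), or 0.07 with arrays scaled to a common median. Tln1, which encodes talin 1, the protein that switches integrins on, averaged 6.00 ± 0.21 in DOCK8-deficient cells, against 5.70 ± 0.21 in wild type cells, a difference of 0.30 (-0.08 to 0.68) that was 0.07 without background correction and 0.18 without DOCK8-deficient replicate 2 or without wild type replicate 1. Fermt3 encodes kindlin-3, the talin partner of blood cells, and was the only gene whose DOCK8-deficient arrays all lay below the wild type ones. It read 10.13, 9.95 and 9.77 in DOCK8-deficient cells against 10.33, 10.18 and 10.25 in wild type cells, a difference of -0.30 (-0.62 to 0.02, adjusted p = 0.47). The Tln1 probe was dim, its lowest array at 5.46, beside 5.36 for the highest value of the undetected Rhoh probes. The talin and kindlin differences had opposite signs, but both intervals included 0 and neither passed the test, so an opposed change is not shown.

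The other actin-binding genes overlapped between groups. Pfn1, profilin, which feeds actin monomers to growing ends, differed by -0.03 (-0.36 to 0.31), and Capzb, of the capping protein that closes those ends, by -0.07 (-0.44 to 0.31). Vasp and Evl, which keep filament ends growing, differed by -0.09 and 0.10. Lcp1, the filament bundler L-plastin, differed by -0.20 (-0.63 to 0.22), with 1 wild type array, at 11.67, above the other 5. Without that array the difference was -0.04. Msn, moesin, which ties filaments to the membrane, differed by 0.11 (-0.23 to 0.45). Over the 12 genes of this group 7 read higher and 5 lower, 0 passed, and the median difference was 0.10. Without wild type replicate 1 that median was -0.0026, and without wild type replicate 3 it was 0.17.

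Counting genes whose groups did not overlap gave 7 of 30 higher (Cdc42, Arpc2, Actb, Cfl1, Coro1a, Tln1 and Vcl, 23.3%) and 1 lower (Fermt3, 3.33%), where 8.61% of all genes were higher and 8.5% lower in that way. For Cdc42 and Tln1 the nearest arrays of the groups were equal in print. The 30 genes are brighter than most, 25 of them reading above the median level of all genes tested, and their values vary less between replicates. The part of these features in the count was not tested.

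Several genes were read by more than 1 probe. For 12 of the 30 genes there were 21 further tested probes, of which 0 passed over all 14559 tested probes (lowest limma adjusted p 0.32), where 0.213% of all probes passed. At an unadjusted p under 0.05 stood 3 of the 21, the dimmest tested probe each of Actr3 (0.43), Arpc5 (0.47) and Msn (0.40), where 10.1% of all probes did so. In 6 of the 21 the difference had the opposite sign from the brightest probe of the gene.

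The 5 Actb probes differed from one another. The second brightest read 15.13, 15.28 and 15.15 in DOCK8-deficient cells, against 15.01, 14.83 and 14.94 in wild type cells, a difference of 0.26 beside 0.22 for the brightest. The next read 14.73, 13.84 and 13.94 in DOCK8-deficient cells against 14.05, 14.08 and 14.31 in wild type cells, overlapping groups with a difference of 0.02. The dimmest 2 varied by more than 2 log2 units within the DOCK8-deficient group, at 11.56, 13.40 and 11.11 for the brighter of them, against 12.28, 11.22 and 12.18 in wild type cells. Both had the same order of arrays, with replicate 2 of the DOCK8-deficient group highest, and gave a difference of 0.13 with intervals from -1.17 to 1.44. The cause of that spread was not tested. Where the probes lie in the transcript is not used here, and Actb closely resembles other actin genes, so cross-reading cannot be judged.

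Of the 4 Coro1a probes, the difference was 0.27 on the brightest, 0.31 on the dimmest, 0.11 on the second and -0.07 on the third. The mean of the 4 probes differed by 0.15 (adjusted p = 0.663). For Msn the 3 probes read 0.11, -0.42 and 0.40, the middle one with an interval of -1.28 to 0.44. The 3 Arpc1b probes read 0.16, 0.01 and 0.06, and the 2 of Pfn1 -0.03 and 0.07.

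**Figure D3:**
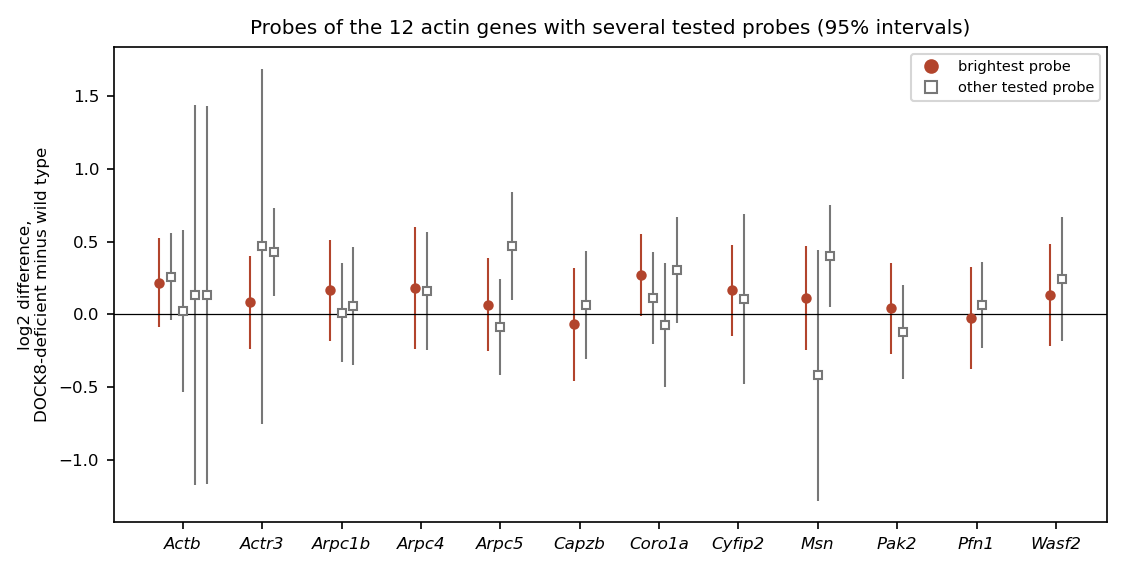
Log2 differences, DOCK8-deficient minus wild type, with 95% intervals for each tested probe of the 12 genes read by several probes, filled for the brightest probe and open for the others. The brightest probes lie between -0.07 and 0.27, and the widest intervals belong to dimmer probes of Actb, Actr3 and Msn.

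A further 199 genes of the same pathway, listed by role, gave 127 tested genes. None of them met the threshold either: 0 passed in limma, and their median difference was 0.02. At an unadjusted p under 0.05, 5 were higher (3.94%) and 2 lower, where 5.68% of all genes were higher and 5.66% lower. The lowest adjusted p was 0.152, for Tagln2, which encodes the actin-bundling transgelin 2. It read 12.22, 12.27 and 12.11 in DOCK8-deficient cells against 11.55, 11.78 and 11.70 in wild type cells, apart by 0.52 ± 0.12 (SE). It did pass without background correction and with a robust prior variance that follows signal level (a trended robust prior). Rdx, which encodes the moesin relative radixin, differed by 0.45 ± 0.13 (adjusted p = 0.223).

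Regulators of the GTPases were split, with 14 of 32 higher and a median of -0.02. The exchange factor genes Vav2 and Tiam1, which act on RAC GTPases, had the smallest p of that list, with differences of 0.37 and 0.37 (adjusted p = 0.349 and 0.371). Among the GTPase effectors, 12 of 22 read higher with a median of 0.03, and Pard6g, a CDC42-binding polarity gene, was detected on 1 of 3 DOCK8-deficient and 3 of 3 wild type arrays, so that its difference was not measured on both sides (adjusted p = 0.349), while Cdc42se1, a small CDC42-binding protein, differed by -0.27 (adjusted p = 0.477).

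WASP, WAVE and Arp2/3 genes outside the 37 read higher in 12 of 24 cases, with a median of 0.01. Abi3, a WAVE complex adaptor, stood out lowest among them at 10.23, 10.31 and 10.63 in DOCK8-deficient cells against 11.16, 10.98 and 10.74 in wild type cells. The groups did not overlap, and the difference of -0.57 ± 0.17 did not pass (adjusted p = 0.235), although it did with a trended robust prior. Coro7, a coronin of the Golgi, differed by -0.42 (adjusted p = 0.559) with detection on 2 of 3 arrays in each group. Of the other formins 5 were tested, 3 of them higher, with Fhod1 at -0.16 and Daam1 at 0.19. Actin-binding genes outside the 37 read higher in 27 of 44 cases with a median of 0.07.

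**Figure D4:**
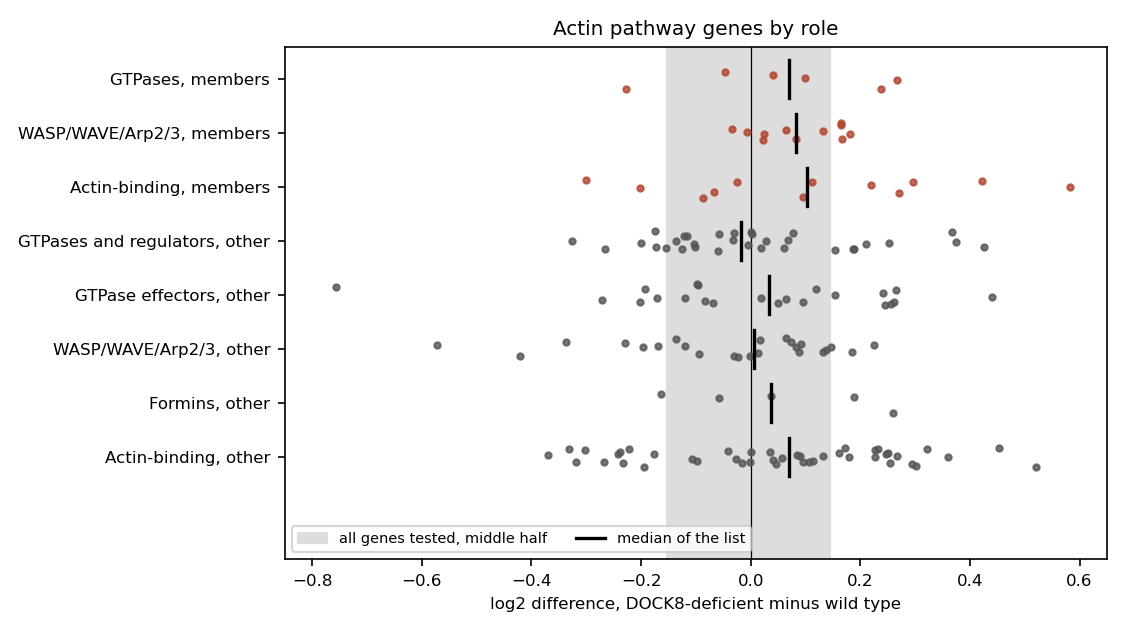
Log2 differences, DOCK8-deficient minus wild type, of each tested gene by role, red for the genes described first and grey for the further pathway genes, with a black bar at each list's median and the range between the quartiles of all 9060 genes, -0.15 to 0.14, shaded. Fmnl1 is not drawn. Medians lie between -0.02 and 0.10, all inside the shaded band.

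Markers of other cell types and of dividing cells were read beside these values. Of 17 tested genes of dividing cells, 13 of them detected on all 6 arrays, 17 had higher values in the DOCK8-deficient samples, where 49% of all genes did. Their median was 0.40 and 0 passed, Stmn1 at 0.85 and Tk1 at 0.91 having the smallest p (adjusted p = 0.101 and 0.122). Their summed level on the linear normalised scale lay between 7704 and 9947 in DOCK8-deficient cells and between 6522 and 7811 in wild type cells, and Ccnb2, Ccna2, Bub1, Ube2c and Kif11 were detected on 0 of 6 arrays. Plk1, detected on 3 of 3 DOCK8-deficient and 1 of 3 wild type arrays, met the filter by its DOCK8-deficient arrays. Its place in the count of 17 is therefore no support for a difference in the list. Top2a and Aurkb were detected on 3 of 3 DOCK8-deficient and 2 of 3 wild type arrays. Rrm2 was detected on 2 of 3 and 1 of 3. Genes listed as myeloid and dendritic cell markers read higher in 9 of 12 cases, Tyrobp (1.099, adjusted p = 0.0631) and Fcgr3 (0.84, adjusted p = 0.143) having the smallest p. Csf1r (-0.16), S100a8 (-1.29) and S100a9 (-0.88) read lower, each detected on 3 of 6 arrays. The sums of the list ran from 9667 to 11672 against 9006 to 9534 in wild type cells. Fcer1g was the brightest gene in these sums, averaging 12.48 against 12.30 in wild type cells. Which cells gave the Tyrobp, Fcgr3 and Fcer1g signals was not tested, so these genes are not read as myeloid cells here. Itgam, Cybb and Flt3 were detected on 0 of 6 arrays. Double-positive thymocyte markers read lower in 8 of 8 cases, where 4624 of all 9060 genes read lower. Their sums ran from 2250 to 2446 against 2598 to 3218 in wild type cells. Of the 8, 6 were detected on all 6 arrays. Dntt, the only marker named here below the threshold, was detected on 0 of 3 DOCK8-deficient arrays and 3 of 3 wild type arrays. Dntt entered the test through the wild type arrays alone, so neither its call nor its place in the count of 8 is support for a difference in the list. Themis, detected on 1 of 3 DOCK8-deficient and 3 of 3 wild type arrays, met the filter by its wild type arrays too. Cd1d1 differed by -0.77 (adjusted p = 0.219), and Rag2, Cd8a and Ccr9 were detected on 0 of 6 arrays.

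B cell markers gave 5 tested genes, Cd74 (0.36) and Ly6d (-0.34) having the smallest p, with sums of 366 to 454 in DOCK8-deficient cells and of 318 to 426 in wild type cells, and Ms4a1, Pax5 and Vpreb3 were detected on 0 of 6 arrays. Erythroid markers gave 2 tested genes, Tfrc (0.53) and Hba-a1 (0.60), with sums of 665 to 1057 in DOCK8-deficient cells and of 479 to 640 in wild type cells, and Alas2 and Klf1 were detected on 0 of 6 arrays. Thymic stroma markers gave 3 tested genes, Ccl25 (0.32) and Col1a2 (0.27) having the smallest p, with sums of 226 to 294 in DOCK8-deficient cells and of 207 to 266 in wild type cells, and Epcam, Krt5, Krt14, Foxn1, Col1a1, Col3a1, Pdgfrb and Psmb11 were detected on 0 of 6 arrays. None of the genes of these 3 lists passed. Of the NKT identity genes 5 read higher and 8 lower with 0 passing, Ccl5 at -0.49 (adjusted p = 0.388) and Cd247 at -0.41 (adjusted p = 0.664), and their sums were 74403 to 76660 in DOCK8-deficient cells and 77518 to 85544 in wild type cells.

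In sorted bulk RNA, a different number of cells of a type and a different amount of RNA per cell cannot be told apart. The part of these markers in the actin gene values was not tested.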

How the data were processed

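RNA of 3 DOCK8-deficient and 3 wild type NKT cell samples was labelled with biotin and read on Illumina arrays, per the labels' protocols. The deposited scanner table gives linear intensity values and a detection p-value for each probe, per the file headers. A further deposited table is on a log2 scale, as judged from its values, and ranks probes as the scanner table does (rank correlation 0.999999). How it was normalised is stated by neither labels nor headers. Its array medians lay between 6.14 and 6.22.

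Intensities were background corrected and quantile normalised with neqc (limma 3.58.1, R 4.3.3, offset 16). Of 45281 probes, 34885 had 1 gene symbol, 18 had several and 10378 none, and only those with 1 symbol were used. Symbols were updated through RefSeq gene identifiers for 34807 probes. Groups were compared with lmFit and eBayes, 2-sided, with Benjamini-Hochberg adjustment over all 9060 genes, and the functions were tested on simulated data. Errors after log2 differences are moderated standard errors. No replicate pairing was used, since the labels state none. As a check, same-numbered samples did not deviate together.

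The genes and lists were chosen with earlier results of these data known. Text names all tested genes of the 37, Dock8, and the 2 genes of smallest p in each further list. Undetected markers are named as such, and some other genes of the lists stand beside a count they bear on. Alternatives were median scaling, leaving out background correction, other detection filters, the deposited log2 table, the mean of probes, a trended robust prior, a replicate block and leaving out each array. The number of arrays limits precision.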

Additional observations from a re-analysis of the deposited data

How the results depend on the processing

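None of the 30 genes passed under any of the 14 alternatives, with 0 in each, and their lowest adjusted p ranged from 0.0861 (Coro1a, trended robust prior) to 1 (Vcl, median scaling). The count of all changed genes, 33, was 125 without background correction, 62 with median scaling (23 higher and 39 lower in place of 19 and 14), 126 in the deposited log2 table, 54 with detection on all 6 arrays, 165 with a trended robust prior and between 2 and 15 with 1 array left out. With the replicate number as a block it was 0, but the samples share only a number: deviations of same-numbered samples correlated at 0.04, -0.15 and -0.27 over genes, and none matched its own number best. Among further pathway genes, 0 of which passed, 1 passed without background correction (Tagln2) and 2 with a trended robust prior (Abi3 and Tagln2).

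Of the 30 genes, 15 kept their direction throughout, and the other 15, with differences of at most 0.16 in size, changed sign at least once without passing; the causes were not tested. Of the 15, 13 did so under a setting other than median scaling, which moved the median of all genes to -0.0764, against -0.0049. With median scaling Pak2 read -0.048, Lrch1 -0.0085, Was -0.020 and Arpc5 -0.0081. In the deposited table Nckap1l read 0.016 and Pfn1 0.014, and with the mean of probes Pak2 read -0.040 and Pfn1 0.020. With 1 array left out, Rac2 ranged from -0.082 to 0.023, Lrch1 from -0.0066 to 0.22, Wipf1 from -0.063 to 0.098, Actr3 from -0.013 to 0.14, Hcls1 from -0.0822 to 0.0125, Nckap1l from -0.061 to 0.087, Fmnl1 from -0.055 to 0.47, Pfn1 from -0.14 to 0.075, Vasp from -0.24 to 0.052, Evl from -0.0050 to 0.18, Capzb from -0.18 to 0.054 and Msn from -1e-04 to 0.22. The dim Fmnl1 was read with an SE of 0.262, where the median SE of the 30 genes was 0.14.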
